A study of Mus musculus with 28 samples.

Results

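The genes described here are 257 of the 24116 genes counted in mouse embryonic stem cells, those whose RNA was higher 32 h after 2i withdrawal both without Zfp281 and without Ehmt1. They were chosen by their values in 8 libraries of the 32 h stage. On the scale log2(CPM + 1), where CPM is a count scaled to the library's total, a member's mean in 2 knockout (KO) libraries exceeded its mean in 2 wild-type (WT) libraries by at least 1, for Zfp281 and again for Ehmt1, and in each set both KO libraries lay above both WT libraries. Of the 271 genes that met these thresholds, 14 were left out by name: the naive pluripotency genes Nanog, Esrrb, Klf4, Tbx3, Tcl1, Zfp42, Nr5a2, Prdm14 and Id3, and Zfp352 with the multi-copy genes Usp17la, Usp17lb, Usp17lc and Usp17le. Of the members, 241 were annotated as protein coding, 11 as long noncoding RNAs and 5 as transcribed pseudogenes, and 22 had only predicted symbols.

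All cells were of the female line RGd2, which carries a green fluorescent protein and blasticidin reporter at Rex1. They were sampled in 2i (the stage named ESC) or 16 h or 32 h after 2i was taken away. One set of libraries was made from total RNA after removal of ribosomal RNA: it holds WT and Zfp281 KO cells from each of the 3 stages. The other was made from polyadenylated RNA and holds ESC and 32 h libraries of WT cells, cells without Ehmt1, cells without Zic2 and cells without both, named double KO here. There were n = 2 libraries in every group. They came from 2 clones per KO genotype and from 2 WT lines, which are named WT and Zfp281_WT in the total RNA set and Ehmt1_WT and Zic2_WT in the polyA set. The method of disruption and the altered part of each gene are not stated in the labels. The same clone names recur at each stage, so the spread behind the p-values is that between clones or lines. In the main fits the ESC and 32 h libraries of a clone entered as separate samples, without their pairing. A fit with the clone as a block is named where it was used. Each fit estimates this spread over all its groups together, not from the groups compared alone.

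2i joins an inhibitor of the kinase Gsk3 with one of the kinase Mek and holds mouse stem cells in the naive state, which they leave within days once it is removed. Zfp281 is a zinc finger transcription factor needed for timely exit. Ehmt1, also called GLP, pairs with G9a to methylate lysine 9 of histone H3, a mark of silent genes in euchromatin, and stem cells that lack this pair are known to express germ cell genes. Zic2 is a zinc finger factor that gains importance after exit.

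The upstream sequences of 7 members are shown first, because these genes recur in the results and their upstream bases lie outside annotated exons. Each is the stretch ending 1 base before the RefSeq start, read 5′ to 3′ in the direction of the gene (GRCm38.p6). On both strands 7 short motifs were searched: TCAAGGTCA (Esrrb), GGGTGTGG (Klf), GGGGAGGGG (Zfp281), CACGTG (E-box), TTCCCGC (E2f), CTTTGAT (Tcf) and TTCCNGGAA (Stat3). Capitals mark the matches found.
Cox7b2, chr5:71548206-71548455, minus strand: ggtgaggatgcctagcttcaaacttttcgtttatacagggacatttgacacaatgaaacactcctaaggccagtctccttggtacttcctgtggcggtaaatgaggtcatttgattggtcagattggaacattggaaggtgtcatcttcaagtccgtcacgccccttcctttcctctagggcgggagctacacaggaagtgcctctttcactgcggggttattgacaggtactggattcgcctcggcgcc
Nlrp4c, chr7:6044911-6045160, plus strand: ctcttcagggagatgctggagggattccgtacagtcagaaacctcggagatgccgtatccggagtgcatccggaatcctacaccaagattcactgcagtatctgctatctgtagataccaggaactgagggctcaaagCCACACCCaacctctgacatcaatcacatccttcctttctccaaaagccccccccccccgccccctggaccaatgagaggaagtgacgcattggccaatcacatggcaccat
Rpl10l, chr12:66284402-66284651, minus strand: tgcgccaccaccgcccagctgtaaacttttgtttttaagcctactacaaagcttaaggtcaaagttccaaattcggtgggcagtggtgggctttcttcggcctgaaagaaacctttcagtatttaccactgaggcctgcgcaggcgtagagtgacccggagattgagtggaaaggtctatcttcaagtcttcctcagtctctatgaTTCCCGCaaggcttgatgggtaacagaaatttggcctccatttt
Aass, chr6:23132987-23133236, minus strand: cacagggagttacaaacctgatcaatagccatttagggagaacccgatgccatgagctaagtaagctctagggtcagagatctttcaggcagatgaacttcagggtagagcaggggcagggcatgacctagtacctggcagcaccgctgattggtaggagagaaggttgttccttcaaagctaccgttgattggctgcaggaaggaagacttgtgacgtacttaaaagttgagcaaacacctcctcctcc
Lrriq4, chr3:30644237-30644486, plus strand: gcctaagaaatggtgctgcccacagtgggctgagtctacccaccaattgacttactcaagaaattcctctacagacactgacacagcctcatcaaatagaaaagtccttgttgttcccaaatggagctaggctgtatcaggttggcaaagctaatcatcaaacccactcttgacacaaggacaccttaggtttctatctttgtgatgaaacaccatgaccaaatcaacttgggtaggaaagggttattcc
Mreg, chr1:72212315-72212564, minus strand: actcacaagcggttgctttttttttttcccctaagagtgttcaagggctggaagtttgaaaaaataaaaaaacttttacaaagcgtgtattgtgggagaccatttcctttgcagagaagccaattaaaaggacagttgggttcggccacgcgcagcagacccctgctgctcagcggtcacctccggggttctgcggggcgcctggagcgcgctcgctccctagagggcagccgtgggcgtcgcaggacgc
Gsta3, chr1:21240335-21240564, plus strand: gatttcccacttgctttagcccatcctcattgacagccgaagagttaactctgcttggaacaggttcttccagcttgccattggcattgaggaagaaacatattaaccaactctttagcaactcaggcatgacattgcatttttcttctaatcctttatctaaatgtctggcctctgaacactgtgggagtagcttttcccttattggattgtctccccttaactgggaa
Nlrp4c held 1 Klf match, on the opposite strand, and Rpl10l held 1 E2f match, while the other 5 held none. The Klf letters occur in 3.19% of 27025 RefSeq promoter windows of 250 bases and the E2f letters in 3.84%. The windows differed in composition: Mreg had 16 CpG dinucleotides and 54.4% G or C, whereas Lrriq4 had 0 CpG and 44.4% G or C, and Gsta3 had 1 CpG in 230 bases. A promoter sequence was found for 187 of the 257 members (72.8%), too few for a comparison of motif shares over the whole set.

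The libraries held 18086421 to 36365192 counts. Markers common to pluripotent cells (Pou5f1, Sox2, Sall4 and 5 others) summed to 3216 to 5161 CPM in every library and none was at 0, against 2.45 to 17.6 CPM for fibroblast, 5.99 to 39.96 CPM for primitive endoderm and 16.9 to 41.6 CPM for immune markers. Trophoblast markers moved with Zfp281 genotype: they summed to 31.95 and 33.1 CPM in the KO clones against 14.5 and 17.1 CPM in WT at ESC, to 22.1 and 19.99 against 12.6 and 8.50 CPM at 16 h, and to 17.5 and 17.1 against 7.36 and 9.89 CPM at 32 h. At ESC they were at 31.7 and 70.9 CPM in Ehmt1 KO against 36.2 and 32.4 CPM in WT, and at 24.6 and 22.8 CPM in double KO against 36.04 and 35.7 CPM in Zic2 KO. Fibroblast markers at ESC summed to 8.98 and 12.97 CPM in double KO against 3.73 and 4.04 CPM in Zic2 KO, and to 8.19 and 9.05 CPM in Ehmt1 KO against 4.57 and 5.38 CPM in WT. Immune markers summed to 30.8 and 35.4 CPM in Ehmt1 KO against 19.4 and 22.05 CPM in WT at ESC, and to 41.6 and 35.7 against 26.4 and 30.8 CPM at 32 h. The part of these markers in the results was not tested. Ehmt1 RNA was at 17.6 to 31.4 CPM in the Ehmt1 KO and double KO libraries and at 78.0 CPM or more in all others. Zfp281 RNA was not lower in the libraries labelled Zfp281 KO, nor Zic2 RNA in those labelled Zic2 KO. Among the Zic2 KO and double KO clones, Zic2 RNA was lower in double KO clone 2 alone, with 68.1 CPM at ESC and 79.99 CPM at 32 h, against 108 and 104 CPM and 144 and 142 CPM in polyA WT. Counts thus do not check the labels of the other clones. One WT line, Zfp281_WT, differed from the rest in 2i and at 32 h: 89.0% and 87.0% of its 1108 olfactory receptor genes had a count, against 11.3% to 24.8% in the other total RNA libraries of those stages. The members were lower in Zfp281_WT than in WT for 204 of 257 genes at 32 h, 235 at 16 h and 159 at ESC, where 34.8%, 57.1% and 34.1% of all genes over 1 CPM were lower. Without this library at 32 h the thresholds chose 255 genes, of which 221 were the same.

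Summed over the members, the level at 32 h was 3880 and 2503 CPM in the total RNA WT libraries and 10324 and 10362 CPM in the Zfp281 KO clones. In the polyA set it was 2676 and 2565 CPM in WT, 2859 and 2829 CPM in Zic2 KO, 10584 and 8819 CPM in Ehmt1 KO and 10532 and 12140 CPM in double KO cells. The Zic2 KO clones, which took no part in the choice, stood close to WT, and the double KO clones stood with the Ehmt1 KO clones. In bulk RNA, fewer cells of a type and less RNA per cell cannot be told apart.

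**Figure D1:**
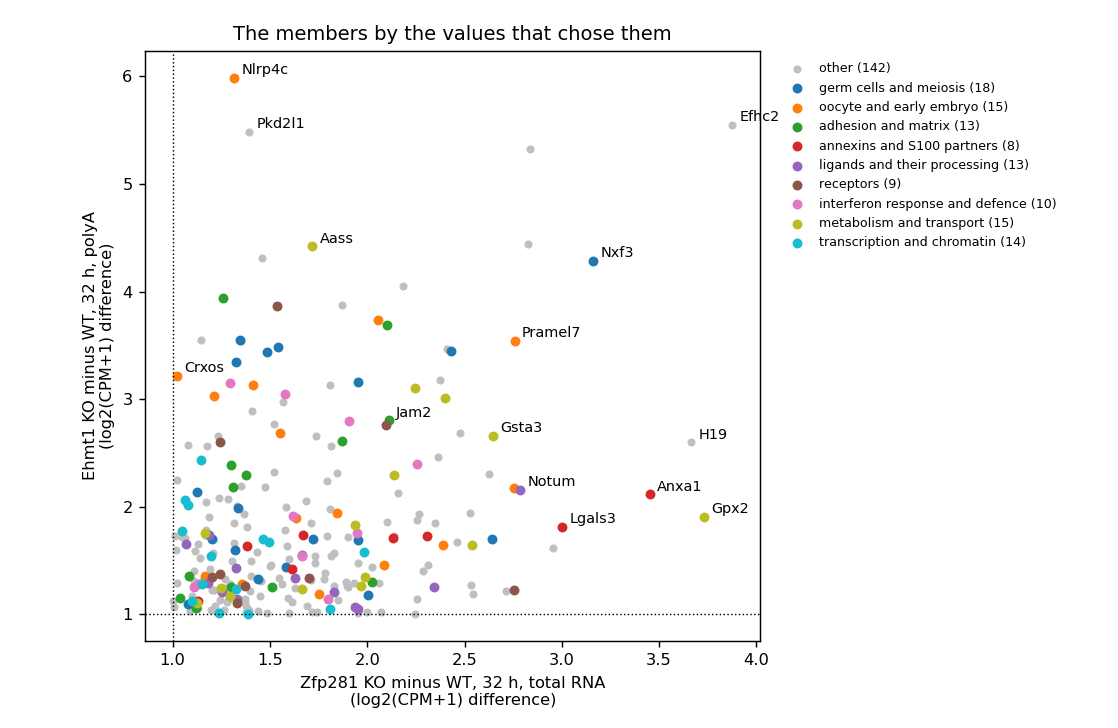
Mean KO minus mean WT at 32 h for each of the 257 members, on the log2(CPM + 1) scale, for Zfp281 (horizontal, total RNA) and Ehmt1 (vertical, polyA); dotted lines mark the threshold of 1 and colours mark groups of genes by role. The differences run from just above 1 to 5.99 for Nlrp4c without Ehmt1 and 3.88 for Efhc2 without Zfp281.

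The median difference that chose the members was 1.54 for Zfp281 and 1.60 for Ehmt1, and 133 members had the larger difference without Ehmt1. Both values are a description, since they are the rule itself. Just inside the threshold lay Tbc1d25 (1.00 and 1.12), Ano1 (1.01 and 1.07) and Lix1 (2.24 and 1.01), for Zfp281 and Ehmt1 in that order. Just outside lay Upk1a (1.09 and 0.999), Zfp296 (1.31 and 0.995) and Robo1 (0.995 and 1.38). In these same libraries, where the rule fixes the outcome, edgeR called 226 members higher without Zfp281 (background 16.6% of genes tested) and 250 higher without Ehmt1 (15.1%), and nothing is read from these counts.

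Tests were made in libraries that took no part in the choice, with the members' own clones at other stages or with the double KO against the Zic2 KO. All 257 members passed the filter on low counts in each fit. In the double KO against Zic2 KO at 32 h, 223 of 257 members were called higher and 0 lower, beside 20% higher and 15.9% lower among all genes tested. Their median log2 fold change was 1.96, against 0.00 for all genes tested, and 256 of 257 were above 0. Genes that passed the filter through the higher group alone were then set aside. This left the 215 members above the filter's level in both Zic2 KO libraries. Of these, 184 were called higher and 0 lower, with a median of 1.79. Among all 13780 genes tested that lay above this level, 15.9% were called higher.

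The same pair of genotypes in 2i gave 178 members higher and 3 lower (background 19% and 15.2%), with a median of 1.61. Ehmt1 KO against WT at ESC gave 175 higher and 2 lower (background 14.8% and 12.1%), with a median of 1.67. Without Zfp281, 175 members were higher and 0 lower at 16 h (background 15.3% and 13.3%; median 1.51), and 140 were higher and 1 lower at ESC (background 8.50% and 5.30%; median 1.26). These comparisons were also counted in the same way, over genes above the filter's level in both libraries of the reference group. The double KO at ESC had 142 of 212 members higher and 3 lower (median 1.41), beside 15.3% higher among all genes so counted. Ehmt1 KO at ESC had 122 of 193 higher and 2 lower, beside 11.4% higher among all genes so counted. Its median was 1.21, below the 1.67 of the whole set. Zfp281 KO had 162 of 231 higher and 0 lower at 16 h (median 1.45), beside 14.2% higher among all genes so counted. At ESC it had 138 of 238 higher and 1 lower (median 1.25), beside 11% higher.

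The Zfp281 count at ESC depended on single libraries: it was 125 without the line Zfp281_WT, but 68 and 59 without KO clone 1 or 2, when all genes called higher dropped to 394 and 304 as well. At 16 h the count was 249 without the line WT and 246 without Zfp281_WT, in fits that take the remaining WT line to vary as little as the 2 KO clones. Of the calls for Zfp281 loss named below, none was lost without Zfp281_WT.

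Loss of Zic2 alone moved few members. At ESC 4 members were higher and 2 lower against WT, with a median of 0.00 and 129 of 257 above 0. These are 1.56% and 0.778% of the members, larger shares than the 0.160% and 0.115% of all genes tested. The 4 were Pkd2l1, Crxos, Pramel17 and Gm5662, and the 2 were Lgals3 and Rsph4a. The count of 4 depended on single libraries too: it was 0 without the WT line Ehmt1_WT or without either Zic2 KO clone, as was the count of 2, and DESeq2 called 28 higher and 11 lower. Before adjustment, 50 members had an edgeR p under 0.05 in the higher direction and 34 in the lower. The share of all genes at this level was not set beside them, so nothing is read from these 2 counts.

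**Figure D2:**
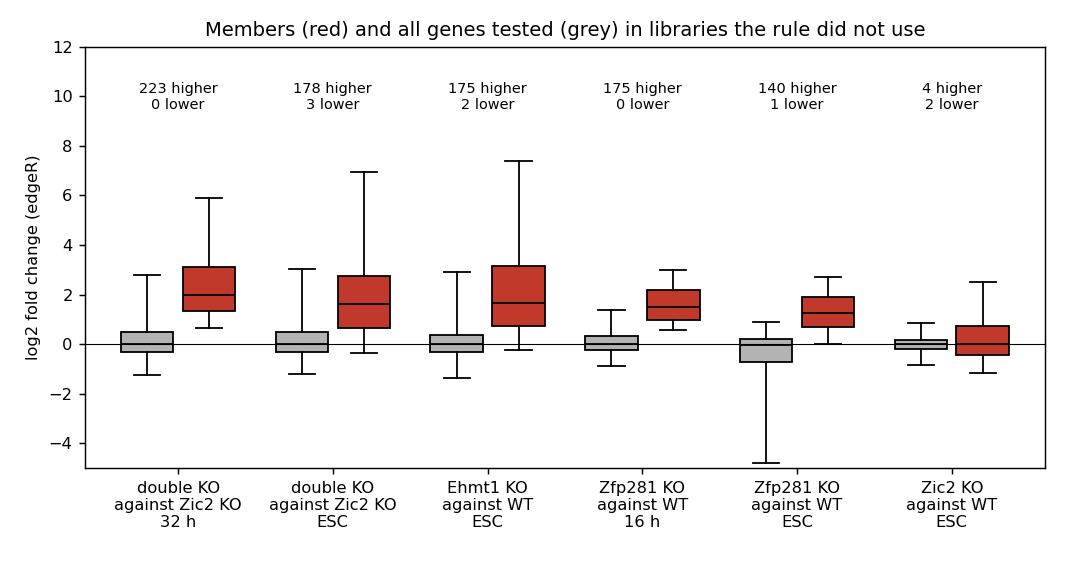
Distribution of edgeR log2 fold changes of the 257 members (red) and of all genes tested (grey) in 6 comparisons of libraries that took no part in choosing the members; boxes span the quartiles, the line is the median and whiskers reach the 5th and 95th percentiles. The members' boxes lie above 0 in the 5 comparisons of Ehmt1 or Zfp281 loss, with medians of 1.26 to 1.96, and straddle 0 for Zic2 loss.

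Of the 257 members, 68 were called higher in all 5 comparisons of Ehmt1 or Zfp281 loss, 63 in 4, 69 in 3, 39 in 2, 14 in 1 and 4 in 0. Among the 14594 genes tested in all 5, the shares were 1.77% in 5, 3.23% in 4, 6.74% in 3, 9.54% in 2, 14.2% in 1 and 64.5% in 0. The last 4 members were H19, Smyd1, Apol6 and AA414768. Zfp281 KO and Ehmt1 KO at ESC share no library, and 104 members were called higher in both, which is 74.3% of the Zfp281 calls and 59.4% of the Ehmt1 calls among members. Over all 15467 genes tested in both, 528 were higher in both, which is 32.9% and 23.8% of the respective calls. Of all 257 members, 68.1% were called higher in Ehmt1 KO and 54.5% in Zfp281 KO at ESC. The shares of 74.3% and 59.4% lie near these. The overlap of the members at 32 h was fixed by the rule, and the same clones gave the libraries at both stages. The overlap at ESC is thus a description.

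Members were grouped by what is known of the genes, after their values had been seen, so the counts by role are a description. Over all members the share called higher was 86.8% in the double KO at 32 h and 69.3% at ESC. It was 68.1% in Ehmt1 KO at ESC, 68.1% in Zfp281 KO at 16 h and 54.5% in Zfp281 KO at ESC. Among all genes tested these shares were 20%, 19%, 14.8%, 15.3% and 8.50%, in that order. Genes of germ cells and meiosis numbered 18, and all 18 were called higher at ESC both in Ehmt1 KO and in the double KO. At 32 h 17 of 18 were higher in the double KO, the exception being Rhox1, and without Zfp281 12 of 18 were higher at 16 h and 12 at ESC. These are members only. A wider list of germline genes, described further below, held 4 members and went both ways in the double KO at 32 h.

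Cox7b2, a testis-type subunit of cytochrome c oxidase, was close to absent in polyA WT cells. It had 0.0924 and 0 CPM at ESC and then 0.5198 and 0.409 CPM at 32 h, against 13.5 and 9.68 CPM and 15.9 and 14.1 CPM in the Ehmt1 KO clones. Zic2 KO clones had 0.253 and 0.205 CPM at 32 h and double KO clones 16.5 and 17.1 CPM. The groups did not overlap, and the fitted log2 fold change between them was 6.12 ± 0.36. Here and below, the value after ± was worked back from the fitted change and its edgeR test statistic. It is not the standard error of the estimate, and it can be too small where a group has few counts. Both Zic2 KO clones lay under the filter's level (0.456 CPM in the polyA set). The Cox7b2 fold at 32 h is therefore a description without p. The same holds below where not all libraries of the lower group reach this level. Elsewhere p is edgeR's quasi-likelihood p adjusted by Benjamini-Hochberg over all genes of the fit. In total RNA at 16 h Cox7b2 had 1.53 and 0.7700 CPM in WT and 9.46 and 9.44 CPM without Zfp281, a log2 fold change of 3.00 ± 0.27 (adjusted p = 0.00018). At ESC the levels were 0.668 and 0.663 CPM and 6.85 and 6.66 CPM, a log2 fold change of 3.41 ± 0.33 (adjusted p = 0.00031). Every library without Ehmt1 or Zfp281 lay above every WT library of its set.

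Smc1b, a cohesin subunit of meiotic chromosomes, had 0.554 and 0.747 CPM in polyA WT cells at ESC and 20.2 and 10.99 CPM without Ehmt1, a log2 fold change of 4.55 ± 0.57 (adjusted p = 0.0001). At 32 h it had 2.58 and 2.26 CPM in Zic2 KO and 57.4 and 30.8 CPM in double KO clones, a log2 fold change of 4.15 ± 0.49 (adjusted p = 5.8e-05). Clone 1 of the double KO was the higher one, and both clones were above both Zic2 KO clones. Without Zfp281 it had 33.8 and 31.8 CPM at 16 h against 9.75 and 6.98 CPM in WT, a log2 fold change of 1.92 ± 0.15 (adjusted p = 8.9e-05). At ESC it had 13.2 and 11.5 CPM against 2.59 and 2.88 CPM, a log2 fold change of 2.26 ± 0.21 (adjusted p = 0.00025).

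Rpl10l, a retrogene copy of the X-linked ribosomal protein gene Rpl10 that serves in male meiosis, was already present in WT. Its level in polyA libraries at ESC was 22.6 and 27.9 CPM in WT, 33.9 and 45.1 CPM in Zic2 KO, 149 and 157 CPM in Ehmt1 KO and 147 and 131 CPM in double KO cells. The fold change on the log2 scale was 2.57 ± 0.15 (adjusted p = 3.2e-07) for Ehmt1 KO against WT and 1.80 ± 0.15 (adjusted p = 3.7e-06) for double KO against Zic2 KO at ESC. At 32 h double KO clones had 142 and 143 CPM and Zic2 KO clones 35.9 and 42.5 CPM, a log2 fold change of 1.82 ± 0.15 (adjusted p = 3.6e-06). Without Zfp281 the difference at 16 h was 0.74 ± 0.10 (adjusted p = 0.0012) log2 units, from 93.9 and 108 CPM against 62.1 and 54.7 CPM. Since Rpl10l is a near copy of another gene, its counts may depend on how shared reads were assigned.

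Morc1, an ATPase that silences transposons in male germ cells, had 146 and 136 CPM in polyA WT and 293 and 271 CPM in Ehmt1 KO clones at ESC, a log2 fold change of 0.97 ± 0.15 (adjusted p = 0.00045). It was 1.43 ± 0.15 (adjusted p = 2.6e-05) log2 units higher in the double KO at 32 h, with 214 and 304 CPM against 94.6 and 91.6 CPM, and 0.59 ± 0.08 (adjusted p = 0.0013) higher without Zfp281 at 16 h, with 434 and 459 CPM against 282 and 289 CPM. Tex19.1, which restrains retrotransposons in germ and pluripotent cells, differed between clones. Its 32 h level was 602 and 186 CPM in Ehmt1 KO clones 1 and 2, and in double KO clones 356 and 665 CPM against 102 and 87.3 CPM in Zic2 KO. The groups did not overlap, and the double KO was 2.39 ± 0.54 (adjusted p = 0.0046) log2 units above Zic2 KO.

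Genes of the oocyte and early embryo numbered 15, of which 14 were higher in Ehmt1 KO at ESC, 13 in the double KO at ESC and 12 at 32 h. Without Zfp281 8 were higher at 16 h and 8 at ESC. Nlrp4c belongs to a family of NLR genes expressed in oocytes and is the one whose upstream sequence, of the 7 shown, held the Klf letters. It had 0.231 and 0.299 CPM in polyA WT cells at ESC and 115 and 85.7 CPM without Ehmt1, a log2 fold change of 8.51 ± 0.28. At ESC double KO clones had 119 and 99.03 CPM against 0.5696 and 0.5104 CPM in Zic2 KO, a log2 fold change of 7.63 ± 0.25 (adjusted p = 1.8e-09). At 32 h they had 139 and 124 CPM against 0.887 and 1.35 CPM, a log2 fold change of 6.82 ± 0.23 (adjusted p = 1.9e-09). Levels without Zfp281 stayed in the single digits: 6.17 and 5.94 CPM at 16 h against 1.47 and 0.7700 CPM in WT, a log2 fold change of 2.39 ± 0.28 (adjusted p = 0.00059). At ESC the Zfp281 difference was 1.59 ± 0.27 (adjusted p = 0.0051) log2 units, and it missed the threshold when these groups were fitted alone (adjusted p = 0.061; range over all alternatives 0.00088 to 0.061).

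Pramel6, a PRAME family protein of the inner cell mass, stood at 0.041 to 0.278 CPM in the polyA WT and Zic2 KO libraries. Zic2 KO clones had 0.253 and 0.04100 CPM at 32 h, from 6 and 1 counts, and double KO clones 47.2 and 40.96 CPM, a log2 fold change of 8.14 ± 0.60. Its neighbour Pramel7, 14147 bases away on chromosome 2, had 0.211 and 0.492 CPM and 28.5 and 29.7 CPM in the same groups. Dppa3, the maternal factor also called Stella, split the clones: Ehmt1 KO clones 1 and 2 had 75.3 and 10.3 CPM at ESC and then 51.5 and 5.63 CPM at 32 h. Double KO clones had 148 and 49.9 CPM at 32 h against 4.31 and 3.53 CPM in Zic2 KO, and the log2 fold change of 4.62 ± 1.10 (adjusted p = 0.0064) lost its call without either Zic2 KO clone (adjusted p = 0.054 and 0.066; lowest over all alternatives 0.0003).

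**Figure D3:**
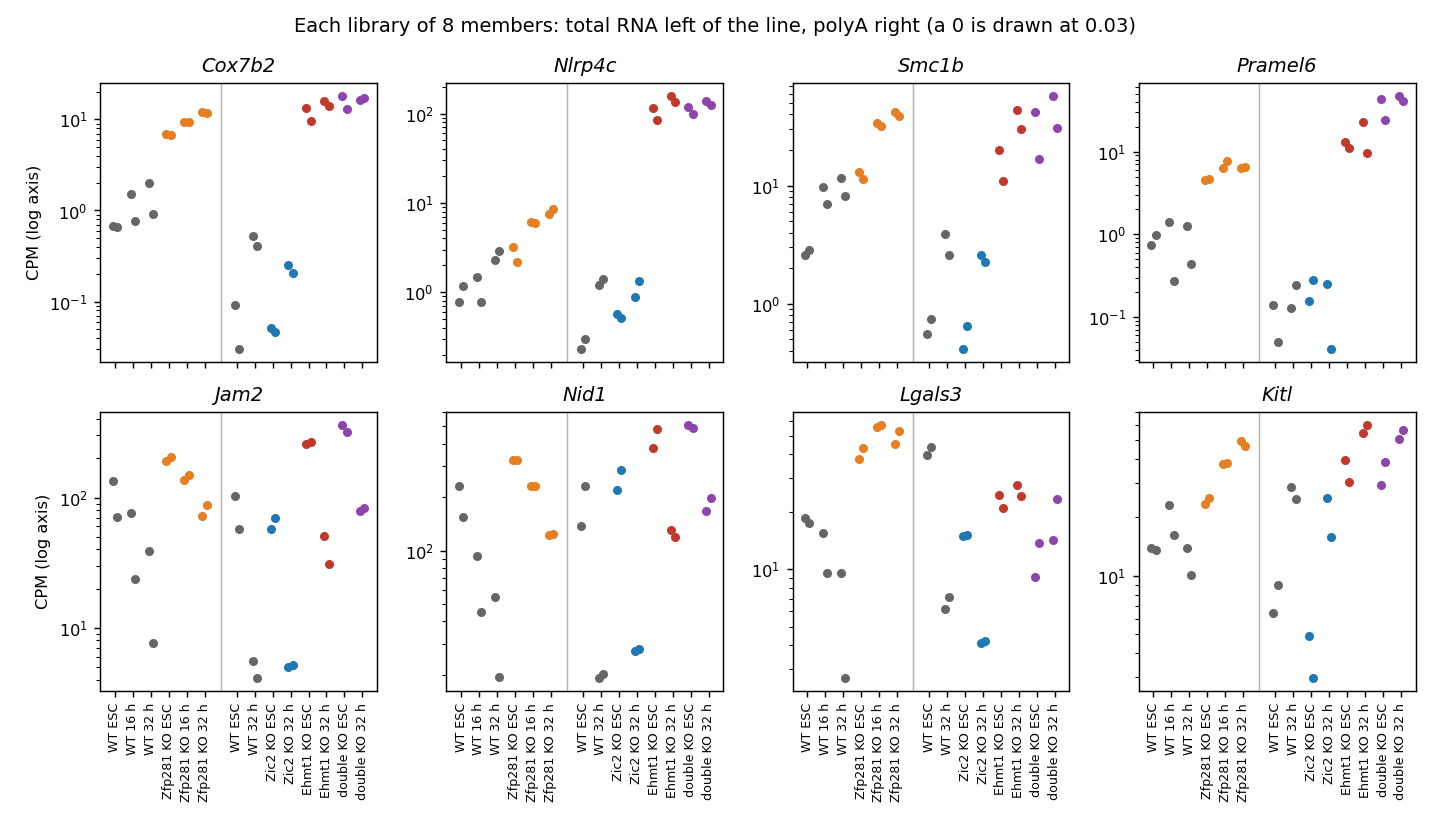
CPM on a log axis of 8 members in every library, with groups along the horizontal axis, total RNA left of the grey line and polyA right of it, 2 points per group. Cox7b2, Nlrp4c, Smc1b and Pramel6 lie higher in Ehmt1 KO and double KO cells than in WT and Zic2 KO cells at both stages, and Jam2, Nid1 and Lgals3 lie lower at 32 h than at ESC in polyA WT and Zic2 KO cells; values of 0 are drawn at 0.03.

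Genes of adhesion and matrix numbered 13. At 32 h 12 were higher in the double KO, against 9 at ESC, and 10 were higher in Ehmt1 KO at ESC. Without Zfp281 8 were higher at 16 h and 4 at ESC. Jam2 encodes a junction protein of naive cells. In Zic2 KO cells it had 57.3 and 69.3 CPM at ESC and then 5.02 and 5.21 CPM at 32 h, a log2 fold change of -3.64 ± 0.30 (adjusted p = 2.9e-06). In the double KO the 32 h level was 78.4 and 82.8 CPM, which is 3.93 ± 0.30 (adjusted p = 2.4e-06) log2 units above Zic2 KO, and Ehmt1 KO cells exceeded WT at ESC by 1.68 ± 0.25 (adjusted p = 0.0004) log2 units, with 259 and 266 CPM against 102 and 57.1 CPM. The WT lines of the total RNA set differed widely at 16 h, with 76.6 and 23.5 CPM, and the Zfp281 KO clones had 137 and 149.7 CPM, so that the log2 difference of 1.48 ± 0.75 (adjusted p = 0.29) did not pass the test although the groups did not overlap. It was 0.87 without Zfp281_WT and 2.53 without WT, and passed in both cases, with the spread then set by the KO clones.

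Nid1, a linker protein of basement membranes, fell in Zic2 KO cells from 219 and 282 CPM at ESC to 27.3 and 27.8 CPM at 32 h, a log2 fold change of -3.20 ± 0.22 (adjusted p = 7.3e-07). Double KO clones had 511 and 491 CPM at ESC and then 167 and 196 CPM at 32 h, and their difference from Zic2 KO was 0.99 ± 0.20 (adjusted p = 0.0023) log2 units at ESC and 2.68 ± 0.21 (adjusted p = 3.1e-06) at 32 h. Ehmt1 KO clones had 380.0 and 480.1 CPM at ESC against 137 and 232 CPM in WT, a log2 fold change of 1.20 ± 0.20 (adjusted p = 0.00075). At 16 h Zfp281 KO clones had 229.6 and 230.5 CPM and WT 93.6 and 44.99 CPM, a difference of 1.69 ± 0.44 (adjusted p = 0.098) log2 units that did not pass the test by edgeR but did by DESeq2 (adjusted p = 0.0041), and without Zfp281_WT it was 1.27 and passed. Cdh17, a cadherin of liver and intestine, had 8.05 and 9.52 CPM in Ehmt1 KO and 0.462 and 0.946 CPM in WT cells at ESC, a log2 fold change of 3.62 ± 0.38 (adjusted p = 2.7e-05). Without Zfp281 it had 13.4 and 17.4 CPM at ESC against 2.98 and 2.82 CPM, a log2 fold change of 2.48 ± 0.25 (adjusted p = 0.0004).

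Annexins, their S100 partners and related membrane proteins numbered 8. All 8 were higher in the double KO at 32 h, beside 86.8% of all members, against 4 at ESC. In Ehmt1 KO at ESC 3 were higher and 1, Lgals3, lower (a call lost without KO clone 2), and without Zfp281 5 were higher at 16 h and 2 at ESC. Lgals3, the sugar-binding protein galectin-3, had 14.9 and 15.2 CPM at ESC and then 4.096 and 4.18 CPM at 32 h in Zic2 KO cells, a log2 fold change of -1.87 ± 0.23 (adjusted p = 6.4e-05), and 9.12 and 13.7 CPM and 14.3 and 23.2 CPM in double KO cells. The double KO difference was -0.42 ± 0.22 (adjusted p = 0.16) log2 units at ESC, where the clones lay below the Zic2 KO clones, and 2.13 ± 0.23 (adjusted p = 3.3e-05) at 32 h, where they lay above. Zfp281 KO clones had 55.9 and 57.2 CPM at 16 h and WT 15.5 and 9.597 CPM, a log2 fold change of 2.12 ± 0.20 (adjusted p = 0.00067).

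S100a10, which binds annexin A2, had 13.2 and 13.4 CPM in Zic2 KO and 64.8 and 68.1 CPM in double KO cells at 32 h, a log2 fold change of 2.28 ± 0.20 (adjusted p = 6.2e-06). At 16 h it was 1.35 ± 0.14 (adjusted p = 0.00074) log2 units higher without Zfp281, with 199 and 211 CPM against 90.5 and 64.5 CPM. Anxa1, a calcium-dependent membrane binding protein, had 13.2 and 27.9 CPM in double KO and 2.28 and 1.48 CPM in Zic2 KO cells at 32 h, a log2 fold change of 3.40 ± 0.47 (adjusted p = 0.0002). At 16 h the Zfp281 KO clones had 49.97 and 51.4 CPM against 14.5 and 5.58 CPM in WT, and the difference of 2.30 ± 0.54 (adjusted p = 0.078) log2 units did not pass the test by edgeR, with WT lines far apart, but did by DESeq2 (adjusted p = 0.0019), and without Zfp281_WT it was 1.77 and passed.

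Secreted ligands and the enzymes that process them numbered 13. At 32 h 12 were higher in the double KO and at 16 h 12 without Zfp281, whereas at ESC 6 were higher in the double KO, 4 in Ehmt1 KO and 7 in Zfp281 KO cells. The exception in the double KO was Vegfc. Nodal, the ligand that drives Smad2 and Smad3 signalling in the epiblast, had 114 and 121 CPM at ESC and then 36.3 and 37.2 CPM at 32 h in Zic2 KO cells, a log2 fold change of -1.68 ± 0.27 (adjusted p = 0.00046). Double KO clones had 114 and 244 CPM at 32 h, far apart from each other but both above Zic2 KO, a log2 fold change of 2.24 ± 0.28 (adjusted p = 8.5e-05). Without Zfp281 it had 77.97 and 83.5 CPM at 16 h against 51.4 and 34.9 CPM in WT, a log2 fold change of 0.85 ± 0.16 (adjusted p = 0.0089). In a list of 16 Nodal and Bmp pathway genes, 5 were higher and 0 lower in the double KO at 32 h. Among all genes tested 20% were higher and 15.9% lower. The median of the list was 0.41, against 0.00 for all genes. Without Zfp281 at 16 h 7 of the list were higher and 5 lower, beside 15.3% and 13.3% of all genes tested.

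Wnt ligands need a lipid that Porcn attaches and Notum removes, and both genes were members. Notum had 31.1 and 35.6 CPM at ESC and then 7.18 and 7.34 CPM at 32 h in Zic2 KO cells, a log2 fold change of -2.21 ± 0.24 (adjusted p = 2.2e-05), and 26.8 and 30.01 CPM in the double KO at 32 h, which was 1.92 ± 0.24 (adjusted p = 8.7e-05) log2 units higher. At 16 h it had 52.4 and 50.2 CPM without Zfp281 against 16.7 and 10.7 CPM, a log2 fold change of 1.86 ± 0.19 (adjusted p = 0.00074). Porcn, on the X chromosome, was 2.13 ± 0.35 (adjusted p = 0.00058) log2 units higher in the double KO at 32 h, with 103 and 77.2 CPM against 19.6 and 20.3 CPM. Without Zfp281 it was 1.50 ± 0.17 (adjusted p = 0.0015) higher at 16 h and 1.47 ± 0.24 (adjusted p = 0.0056) at ESC, with 40.8 and 52.7 CPM against 16.1 and 19.8 CPM. The 16 listed Wnt target genes did not move one way. In the double KO at 32 h 3 were higher and 3 lower, beside 20% and 15.9% of all genes tested.

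Kitl, the ligand of the receptor Kit, went the other way with time. In Zic2 KO cells it had 4.87 and 2.97 CPM at ESC and then 25.2 and 15.9 CPM at 32 h, a log2 fold change of 2.38 ± 0.28 (adjusted p = 3.6e-05). Double KO clones had 29.5 and 38.6 CPM at ESC and then 50.7 and 56.5 CPM at 32 h, 3.10 ± 0.28 (adjusted p = 8.1e-06) and 1.34 ± 0.24 (adjusted p = 0.0012) log2 units above Zic2 KO. Ehmt1 KO exceeded WT at ESC by 2.15 ± 0.26 (adjusted p = 7.5e-05) log2 units, with 39.3 and 30.3 CPM against 6.42 and 9.01 CPM, and Zfp281 KO exceeded WT at 16 h by 0.89 ± 0.15 (adjusted p = 0.0038), with 37.5 and 38.2 CPM against 23.2 and 16.2 CPM. Kitl was thus higher in each of these comparisons, without overlap of the libraries named.

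Receptors numbered 9, of which 8 were higher in the double KO at 32 h, the exception being Dcc, 5 at ESC and 6 in Ehmt1 KO at ESC. Without Zfp281 6 were higher at 16 h and 5 at ESC. Ngfr, the neurotrophin receptor p75, had 32.6 and 91.5 CPM in the double KO clones and 11.4 and 8.98 CPM in Zic2 KO at 32 h, a log2 fold change of 2.56 ± 0.45 (adjusted p = 0.00099). Clone 1 of the double KO was the lower one and still stood above both Zic2 KO clones.

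Genes of the interferon response and defence numbered 10. In the double KO 8 were higher at 32 h, the exceptions being Apol6 and Slc11a1, against 4 at ESC, and in Ehmt1 KO at ESC 3 were higher. Without Zfp281 6 were higher at 16 h and 2 at ESC. Irgm1, an interferon-induced GTPase, had 6.45 and 17.9 CPM in the double KO and 9.01 and 9.79 CPM in Zic2 KO at ESC, which overlap, and 17.2 and 42.3 CPM and 2.998 and 2.17 CPM at 32 h, which do not. The log2 fold change at 32 h was 3.48 ± 0.68 (adjusted p = 0.0019). Zc3hav1, an antiviral protein that binds CpG-rich RNA, had 90.6 and 50.4 CPM in the double KO and 9.58 and 10.2 CPM in Zic2 KO at 32 h, a log2 fold change of 2.79 ± 0.44 (adjusted p = 0.00049). At 16 h it was 1.22 ± 0.10 (adjusted p = 0.00012) log2 units higher without Zfp281, with 55.01 and 50.5 CPM against 22.3 and 21.3 CPM.

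Genes of metabolism and transport numbered 15, and all 15 were higher in the double KO at 32 h, beside 86.8% of all members. At ESC 13 were higher in the double KO, 9 in Ehmt1 KO and 10 in Zfp281 KO, and at 16 h 9 were higher without Zfp281. Gpx2, a glutathione peroxidase of epithelia, was called in each of the 5 comparisons. It had 26.04 and 20.1 CPM at 16 h without Zfp281 against 2.37 and 1.48 CPM, a log2 fold change of 3.53 ± 0.23 (adjusted p = 5.5e-05), and 12.5 and 9.06 CPM at ESC against 0.863 and 1.05 CPM, a log2 fold change of 3.60 ± 0.25 (adjusted p = 8.2e-05). Without Ehmt1 at ESC it had 5.51 and 3.84 CPM against 0.646 and 0.597 CPM, a log2 fold change of 2.87 ± 0.53 (adjusted p = 0.0017). The double KO difference was 2.25 ± 0.47 (adjusted p = 0.0029) log2 units at ESC and 2.60 ± 0.44 (adjusted p = 0.00074) at 32 h, where the clones had 7.12 and 21.2 CPM against 2.41 and 2.09 CPM.

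Aass, the first enzyme of lysine breakdown, was near 1 CPM in WT cells. Its polyA level at ESC was 0.877 and 1.24 CPM in WT and 36.2 and 39.02 CPM in Ehmt1 KO, a log2 fold change of 5.12 ± 0.27 (adjusted p = 1.1e-07). At 32 h it was 2.66 and 3.198 CPM in Zic2 KO and 111 and 86.2 CPM in the double KO, a log2 fold change of 5.03 ± 0.24 (adjusted p = 6.3e-08). At ESC Zfp281 KO clones had 3.41 and 3.59 CPM against 1.28 and 1.603 CPM, a log2 fold change of 1.38 ± 0.19 (adjusted p = 0.0017). The Ehmt1 and Zfp281 values come from different library types, and their difference was not tested. Slc5a1, an intestinal sodium and glucose carrier, had 41.2 and 61.3 CPM in Ehmt1 KO and 4.25 and 4.03 CPM in WT at ESC, a log2 fold change of 3.60 ± 0.31 (adjusted p = 4.7e-06). It was 3.81 ± 0.32 (adjusted p = 4.7e-06) log2 units higher in the double KO at 32 h, with 31.3 and 43.9 CPM against 2.53 and 2.67 CPM.

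Sord, which turns sorbitol into fructose, had 23.6 and 23.2 CPM in Zic2 KO and 107 and 100.1 CPM in double KO cells at ESC, a log2 fold change of 2.13 ± 0.17 (adjusted p = 2.7e-06), and 17.99 and 20.7 CPM and 53.6 and 57.5 CPM at 32 h, a log2 fold change of 1.47 ± 0.16 (adjusted p = 3.7e-05). It was 2.24 ± 0.17 (adjusted p = 2e-06) log2 units higher in Ehmt1 KO at ESC, with 74.8 and 91.7 CPM against 20.3 and 14.1 CPM, and 1.65 ± 0.13 (adjusted p = 9.2e-05) without Zfp281 at 16 h, with 77.5 and 74.9 CPM against 26.8 and 19.9 CPM. Fbp2, a fructose bisphosphatase of muscle, was 3.45 ± 0.34 (adjusted p = 1.4e-05) log2 units higher in Ehmt1 KO at ESC, with 41.7 and 49.1 CPM against 4.62 and 3.48 CPM, and 3.52 ± 0.36 (adjusted p = 2e-05) in the double KO at 32 h, with 20.1 and 17.9 CPM against 1.31 and 1.89 CPM. Gsta3, a glutathione transferase, was 2.34 ± 0.21 (adjusted p = 8.1e-06) log2 units higher in Ehmt1 KO at ESC, with 34.99 and 45.7 CPM against 7.99 and 7.62 CPM. At 32 h Gsta3 had 0.591 and 0.615 CPM in Zic2 KO and 13.7 and 10.004 CPM in the double KO, a log2 fold change of 4.24 ± 0.27 (adjusted p = 5e-07). Each of these enzymes separated the groups compared without overlap.

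Transcription and chromatin factors numbered 14. In the double KO 10 were higher at 32 h and 9 at ESC, in Ehmt1 KO 9 were higher at ESC, and without Zfp281 11 were higher at 16 h, while at ESC 9 were higher and 1, Sfmbt2, lower, a call lost without either KO clone. Hnf4a, a nuclear receptor of visceral endoderm and liver, had 0.9698 and 1.09 CPM in WT and 14.95 and 20.2 CPM in Ehmt1 KO at ESC, a log2 fold change of 4.06 ± 0.31 (adjusted p = 2.2e-06). At 32 h it had 0.211 and 0.4100 CPM in Zic2 KO and 4.795 and 4.23 CPM in the double KO, a log2 fold change of 3.79 ± 0.35. Without Zfp281 at ESC it had 11.3 and 11.7 CPM against 3.202 and 1.94 CPM, a log2 fold change of 2.19 ± 0.33 (adjusted p = 0.0034). Elf3, an ETS factor of epithelia, did not differ by the test at ESC between double KO and Zic2 KO, with 91.3 and 74.5 CPM and 86.4 and 108 CPM and a log2 difference of -0.24 ± 0.23 (adjusted p = 0.44). At 32 h it had fallen to 11.99 and 10.6 CPM in Zic2 KO and stood at 37.1 and 61.8 CPM in the double KO, 2.09 ± 0.25 (adjusted p = 7.6e-05) log2 units higher.

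The other 142 members had no common role. Of these 121 were higher in the double KO at 32 h, 97 higher and 3 lower at ESC, and 99 higher and 1 lower in Ehmt1 KO at ESC, while 98 were higher without Zfp281 at 16 h and 81 at ESC. Efhc2, an X-linked gene for an EF-hand protein, had 0.277 and 0.249 CPM in WT and 85.9 and 99.4 CPM in Ehmt1 KO at ESC, a log2 fold change of 8.40 ± 0.33. The double KO difference was 7.46 ± 0.30 at ESC and 6.48 ± 0.27 (adjusted p = 1.8e-08) at 32 h, where the clones had 82.6 and 94.4 CPM against 0.844 and 1.07 CPM. The total RNA WT lines had 5.096 and 0.442 CPM at ESC, far apart, and the Zfp281 KO clones 72.3 and 61.004 CPM, above both.

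Pkd2l1, a cation channel, had 0.646 and 0.597 CPM in WT, 1.81 and 1.86 CPM in Zic2 KO, 102 and 106 CPM in Ehmt1 KO and 84.6 and 91.4 CPM in double KO cells at ESC. The log2 fold change was 7.34 ± 0.15 (adjusted p = 7.6e-12) for Ehmt1 KO, 5.56 ± 0.13 (adjusted p = 4.6e-11) for double KO against Zic2 KO at ESC and 5.61 ± 0.13 (adjusted p = 4.4e-11) at 32 h. For Zic2 KO against WT it was 1.53 ± 0.19 (adjusted p = 0.014), a call lost without Ehmt1_WT (adjusted p = 0.13), without Zic2 KO clone 1 or 2 (adjusted p = 0.08 and 0.1) or with these groups fitted alone (adjusted p = 0.059), while its lowest adjusted p over all alternatives was 0.0014. Mreg, a protein of melanosome transport, was abundant in every library, with 160.0 and 153 CPM in polyA WT and 264 and 300.2 CPM in Ehmt1 KO at ESC, a log2 fold change of 0.82 ± 0.13 (adjusted p = 0.00045). Without Zfp281 it had 191 and 179 CPM at 16 h against 111 and 99.7 CPM, a log2 fold change of 0.76 ± 0.09 (adjusted p = 0.00048).

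H19, the imprinted long noncoding RNA, met the thresholds at 32 h with library values that spread widely. Its level was 26.5 and 0.643 CPM in total RNA WT and 91.9 and 77.3 CPM without Zfp281, and in the polyA set 36.9 and 2.86 CPM in WT, 47.5 and 109.9 CPM in Ehmt1 KO, 4.35 and 19.02 CPM in Zic2 KO and 33.1 and 200.2 CPM in the double KO. The double KO difference from Zic2 KO of 3.27 ± 1.22 (adjusted p = 0.052) log2 units did not pass the test (range over the alternatives 0.032 to 0.43). Of 29 imprinted genes tested, 5 were higher and 8 lower in that comparison, beside 20% and 15.9% of all genes tested.

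The members did not share one course in time. From ESC to 32 h in Zic2 KO cells, whose libraries took no part in the choice, 91 of 257 fell and 35 rose, beside 15.2% falling and 15.7% rising among all genes tested, and 131 were not called. The median change was -2.01 log2 units in the falling class, 1.95 in the rising class and 0.12 in the rest. With the clone as a block, 109 fell and 57 rose, and without Zic2 KO clone 1 or 2 at ESC, or clone 2 at 32 h, the rising count was 21, 21 and 22. Of the 91 that fell, 47.3% were called higher in Ehmt1 KO at ESC, against 76.3% of those not called and 91.4% of the 35 that rose. The matching shares for Zfp281 KO at 16 h were 70.3%, 64.1% and 77.1%. Differences between these shares were not tested.

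**Figure D4:**
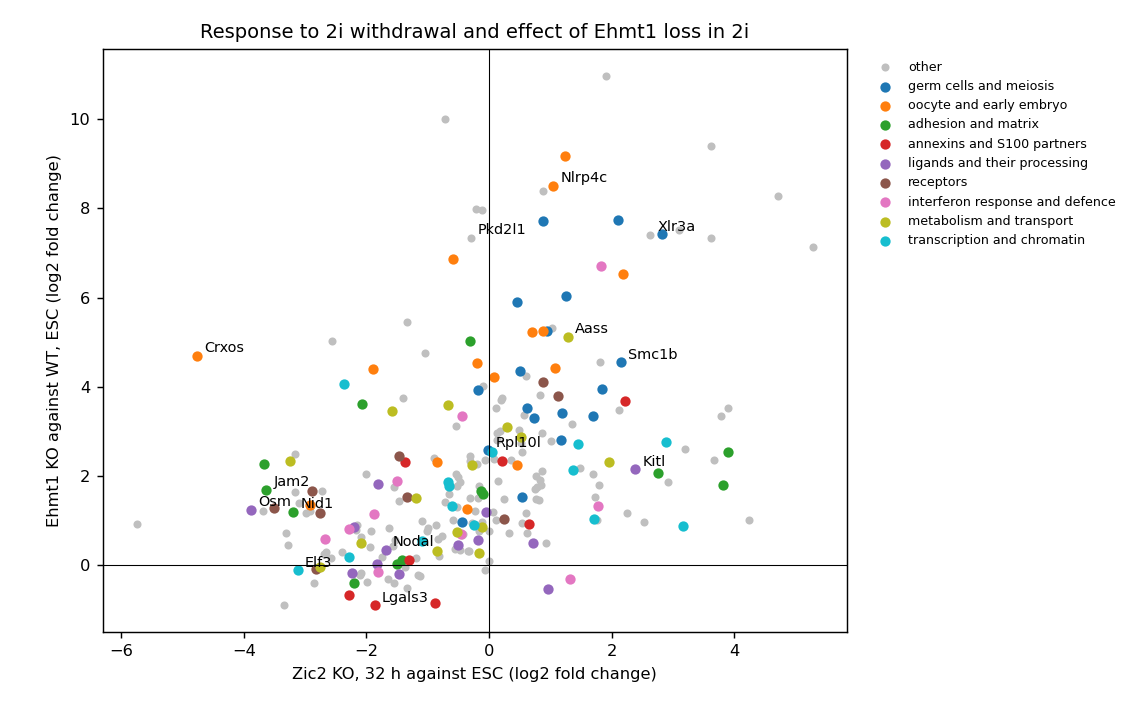
Each of the 257 members by its log2 fold change from ESC to 32 h in Zic2 KO cells (horizontal) and in Ehmt1 KO against WT cells at ESC (vertical), coloured by role. Jam2, Nid1, Lgals3, Elf3 and Nodal lie at the left near the bottom, and Nlrp4c, Pkd2l1, Smc1b and Aass lie high.

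The role groups were spread over these classes. Of 18 germ cell genes 1 fell and 6 rose in Zic2 KO cells, and of 15 oocyte genes 2 fell and 1 rose. Of 13 adhesion genes 7 fell and 3 rose, of 13 ligand genes 7 fell and 2 rose, and of 8 annexin group genes 4 fell and 1 rose. Of 9 receptor genes 4 fell and 0 rose, and of 10 interferon genes 5 fell and 0 rose. Of 15 metabolism genes 6 fell and 2 rose, and of 14 transcription factor genes 6 fell and 3 rose. The groups were formed after the values had been seen, and the difference between them was not tested.

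Levels at 32 h in the knockouts were also set beside those of WT cells in 2i. In the double KO, which took no part in the choice, the mean at 32 h exceeded that of WT at ESC for 218 of 257 members (84.8%), beside 55.3% of all genes tested. Ehmt1 KO and Zfp281 KO libraries at 32 h chose the members, so their values are a description. Among the 91 that fell on exit in Zic2 KO cells, 41 stood above WT ESC at 32 h in Ehmt1 KO and 54 in Zfp281 KO.

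**Figure D5:**
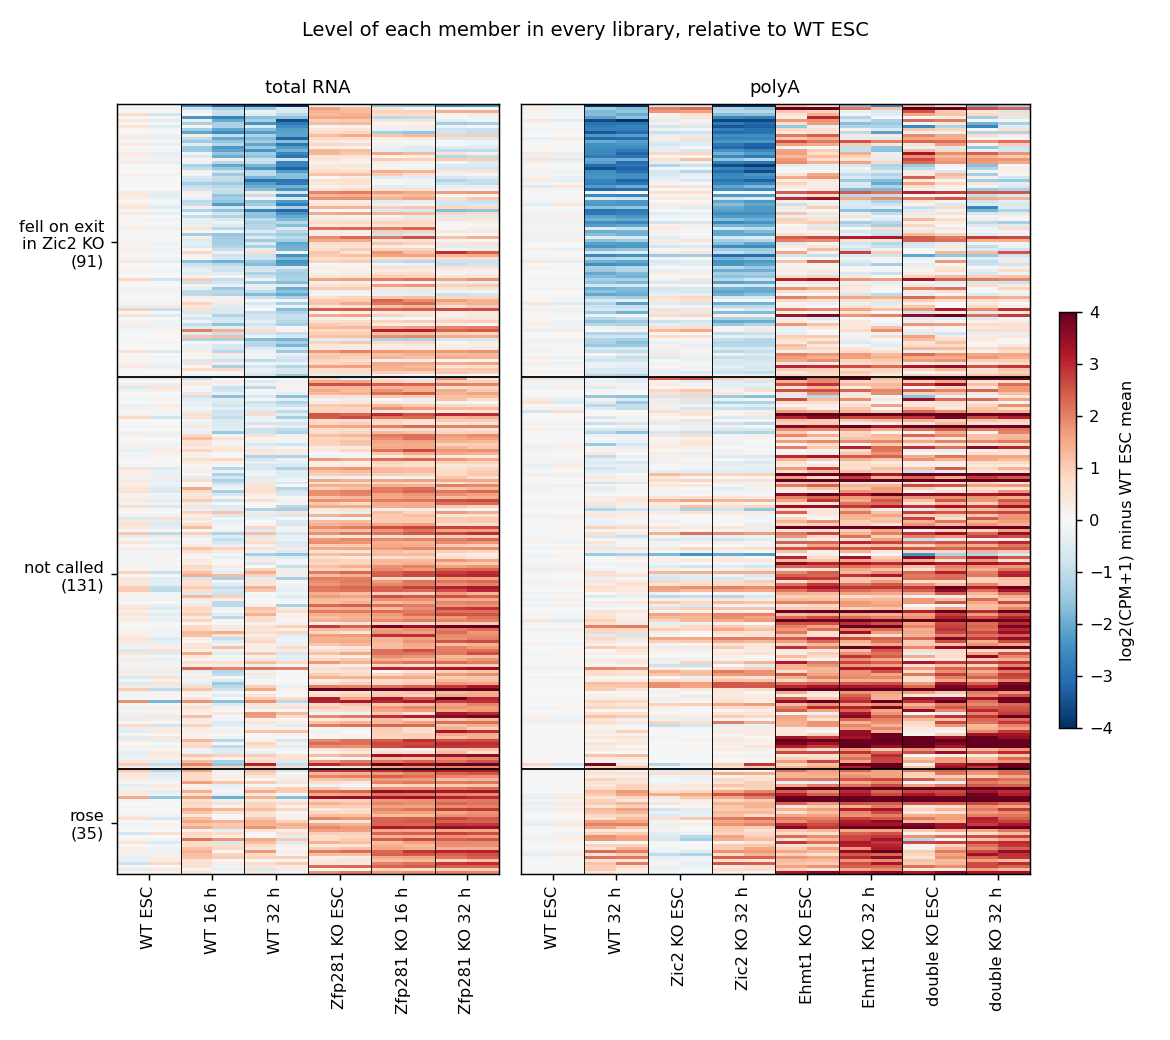
Level of every member in each library as log2(CPM + 1) minus the mean of WT at ESC in the same library set; rows are the 257 members, split by whether they fell (91), were not called (131) or rose (35) from ESC to 32 h in Zic2 KO cells, and columns are libraries, 2 per group, with colours clipped at 4 log2 units either way. Blue marks levels below WT ESC, seen for most rows in WT and Zic2 KO at 32 h in the top block, and red marks levels above, seen for most rows in the knockouts of Zfp281, Ehmt1 and both Ehmt1 and Zic2.

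For 46 members the effect of Ehmt1 loss in Zic2 KO cells differed between the stages. In 39 it was more positive at 32 h and in 7 at ESC (background 1.86% and 1.17%). The rule asked for a difference without Ehmt1 at 32 h and set no condition at ESC. It thus favours members with the larger effect at 32 h, and the excess over the background is a description. The median of the stage difference over the members was 0.41 log2 units. The 39 became 84 with the clone as a block and 60 by DESeq2, and 16 to 25 without Zic2 KO clone 1 or 2 at either stage or without double KO clone 2 at 32 h. The 7 were 2 to 4 without any 1 of the Zic2 KO libraries or without either double KO clone at 32 h. At an unadjusted p under 0.05 the counts were 87 and 18, without the share of all genes beside them.

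Lrriq4, a leucine-rich repeat protein, had 4.09 and 3.805 CPM in Zic2 KO and 34.4 and 32.9 CPM in double KO cells at ESC, a log2 fold change of 3.08 ± 0.23 (adjusted p = 2.4e-06). At 32 h it was at 0.422 and 0.451 CPM in Zic2 KO, a log2 fold change of -3.17 ± 0.32, but stood at 24.6 and 31.6 CPM in the double KO, which was 5.94 ± 0.30 log2 units higher. The difference between stages was 2.87 ± 0.39. It rests on the same Zic2 KO libraries at 32 h, under the filter's level, and is a description. Lrriq4 was 2.49 ± 0.22 (adjusted p = 7.2e-06) log2 units higher in Ehmt1 KO at ESC and 1.84 ± 0.19 (adjusted p = 0.00031) without Zfp281 at 16 h, with 8.09 and 7.199 CPM against 2.12 and 1.98 CPM.

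Mme, the peptidase neprilysin, had 161 and 113 CPM in the double KO and 46.04 and 46.2 CPM in Zic2 KO at ESC, a log2 fold change of 1.56 ± 0.23 (adjusted p = 0.00026), and 119 and 91.4 CPM and 6.63 and 5.58 CPM at 32 h, a log2 fold change of 4.06 ± 0.26 (adjusted p = 5e-07). Its stage difference was 2.50 ± 0.33 (adjusted p = 0.0021). Mreg had 161 and 154 CPM at ESC and then 50.8 and 51.2 CPM at 32 h in Zic2 KO, a log2 fold change of -1.64 ± 0.13 (adjusted p = 2.6e-06), and 304 and 379 CPM and 304 and 341 CPM in double KO cells. Its double KO difference was 1.10 ± 0.13 (adjusted p = 4.7e-05) at ESC and 2.62 ± 0.13 (adjusted p = 9.9e-08) at 32 h, and the stage difference was 1.52 ± 0.18 (adjusted p = 0.0011). In Mreg the double KO level thus stayed near its ESC level while the Zic2 KO level fell.

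In several members the double KO and Zic2 KO stood close at ESC and apart at 32 h. Cdhr1, a cadherin of photoreceptors, had 34.9 and 46.1 CPM in the double KO and 39.9 and 39.8 CPM in Zic2 KO at ESC, and 41.6 and 49.3 CPM and 8.66 and 8.69 CPM at 32 h. Its log2 fold change at 32 h was 2.34 ± 0.23 (adjusted p = 1.3e-05) and its stage difference 2.34 ± 0.31 (adjusted p = 0.0021). Tppp3, which promotes tubulin polymerisation, had 5.73 and 7.18 CPM and 8.08 and 9.001 CPM at ESC, a log2 difference of -0.42 ± 0.24 (adjusted p = 0.2), and 9.28 and 8.95 CPM and 2.62 and 1.72 CPM at 32 h, a log2 fold change of 2.03 ± 0.26 (adjusted p = 0.00011). The stage difference of Tppp3 was 2.45 ± 0.36 (adjusted p = 0.0038).

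Aqp3, a channel for water and glycerol, had 39.5 and 40.5 CPM in the double KO and 3.29 and 2.01 CPM in Zic2 KO at 32 h, a log2 fold change of 3.87 ± 0.36 (adjusted p = 1.1e-05). At ESC the levels were 44.2 and 21.6 CPM and 20.3 and 15.4 CPM, and the stage difference was 2.99 ± 0.47 (adjusted p = 0.0056). Cd55, which shields cells from complement, had 39.4 and 34.1 CPM and 15.5 and 16.5 CPM at ESC, a log2 fold change of 1.18 ± 0.24 (adjusted p = 0.0024), and 19.8 and 27.9 CPM and 1.86 and 1.39 CPM at 32 h, a log2 fold change of 3.82 ± 0.28 (adjusted p = 2.1e-06), with a stage difference of 2.64 ± 0.37 (adjusted p = 0.0028). For Elf3 the stage difference was 2.33 ± 0.34 (adjusted p = 0.0043), with a log2 fold change from ESC to 32 h in Zic2 KO of -3.12 ± 0.26 (adjusted p = 3.4e-06). For Lgals3 it was 2.55 ± 0.32 (adjusted p = 0.0016), for Nid1 1.69 ± 0.28 (adjusted p = 0.0074) and for S100a10 1.67 ± 0.27 (adjusted p = 0.0062).

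Dock2, an activator of the GTPase Rac, was an example of the opposite kind. It had 1.55 and 1.67 CPM in Zic2 KO and 28.03 and 20.6 CPM in double KO cells at ESC, a log2 fold change of 3.90 ± 0.33 (adjusted p = 5.1e-06), and 6.54 and 7.63 CPM and 14.4 and 20.1 CPM at 32 h, a log2 fold change of 1.24 ± 0.28 (adjusted p = 0.0048). Dock2 rose in Zic2 KO cells by 2.12 ± 0.33 (adjusted p = 0.00034) log2 units, and the stage difference was -2.66 ± 0.43 (adjusted p = 0.0064). The 32 h difference missed the threshold without Zic2 KO clone 1 (adjusted p = 0.051; lowest over all alternatives 7.6e-05). Without Zfp281 it had 16.6 and 16.5 CPM at 16 h against 6.47 and 6.08 CPM, a log2 fold change of 1.34 ± 0.13 (adjusted p = 0.00025), and 9.23 and 8.01 CPM at ESC against 2.06 and 3.04 CPM, a log2 fold change of 1.89 ± 0.15 (adjusted p = 0.00016).

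The spread between the 2 clones of a genotype was uneven. They stood over 1 log2 unit apart for 33 members in Ehmt1 KO and 37 in double KO cells at 32 h, and for 18 and 57 at ESC, but for 1 in Zic2 KO at 32 h, and for 1, 1 and 2 in Zfp281 KO cells at 32 h, 16 h and ESC. The total RNA WT lines were over 1 log2 unit apart for 43 members at 32 h and 58 at 16 h, while the polyA WT lines at 32 h were so for 1.

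Of the members, 25 lay on the X chromosome (9.73%), against 3.70% of the genes that reached 1 CPM in a library. X-linked counts made up 4.40% to 4.80% of all counts in the Zfp281 KO libraries and 2.83% to 3.34% in the polyA libraries. In the total RNA WT libraries they split by line, with 3.94% to 3.98% in WT and 3.33% to 3.49% in Zfp281_WT. Over all X-linked genes tested, the median log2 fold change without Zfp281 was 0.41 at ESC and 0.36 at 16 h, and its part in the members' values was not tested. At ESC the median of the X-linked members was 1.81 in Zfp281 KO and 2.14 in Ehmt1 KO cells, against 1.23 and 1.58 for the other members. Of the 25, 23 were higher in the double KO at 32 h, 19 in Ehmt1 KO at ESC and 10 in Zfp281 KO at ESC. Of the 232 other members, 200, 156 and 130 were higher in the same comparisons.

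Some members were neighbours, with 50 of 257 lying within 200000 bases of another member. The share for other sets of genes was not computed, so nothing is read from this count. Among these neighbours were Fbp2 and Fbp1 (6353 bases apart on chromosome 13), R3hdml and Hnf4a (4190 bases, chromosome 2) and Gbp2b and Gbp2 (1484 bases, chromosome 3). Others were Tex19.2 and Tex19.1 (27466 bases, chromosome 11), Terb2 and Sord (28446 bases, chromosome 2) and Tbc1d25 and Porcn (17665 bases, chromosome X). Family members such as Gbp2b and Gbp2 can share reads, so their counts are not independent.

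Pathway lists were drawn from general knowledge, with earlier results of these data known. Among all genes tested, 20% were higher and 15.9% lower in the double KO at 32 h. The shares were 15.3% and 13.3% without Zfp281 at 16 h, and 14.8% and 12.1% in Ehmt1 KO at ESC. Of 31 further naive genes tested, among which Jam2, Dppa3, Fbxo15, Aire and Fam189a2 were members, 13 were higher and 4 lower in the double KO at 32 h, and 14 higher and 3 lower without Zfp281 at 16 h. Of 36 germline genes tested 12 were higher and 10 lower in the double KO at 32 h, and 16 higher and 4 lower in Ehmt1 KO at ESC. A list of Mage, Xlr and Wfdc15a genes, known to need the Ehmt1 complex for silencing and holding the member Xlr3a, had 10 of 13 tested higher, with 0 lower, in the double KO at 32 h. Trophoblast genes were higher in 7 of 12, with 0 lower, and primitive endoderm genes in 6 of 18, with 2 lower, in the same comparison. Formative genes went the other way without Zfp281 at 16 h, with 1 higher and 14 lower of 19. The trophoblast and formative lists held 0 members and the primitive endoderm list 1, Hnf4a.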

How the data were processed

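The authors deposited raw read counts per Entrez gene for 28 libraries in tables of total RNA (ESC and 32 h, and 16 h separately) and of polyA RNA. The genome was GRCm38/mm10 and edgeR was used, per the submitters' processing notes; the aligner, the counter and use of strand were not given in the sources used here. Symbols for 24061 of 24116 genes and all coordinates came from RefSeq GRCm38.p6. CPM was the count over the column sum.

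Tests used edgeR 4.0.16 in R 4.3.3 (quasi-likelihood, robust, TMM, minimum count 10 and total 15) on 15667 polyA, 18971 total RNA ESC and 32 h, and 15139 total RNA 16 h genes, called at a Benjamini-Hochberg adjusted p under 0.05. The scripts were tested on simulated counts, with 200 genes changed in each comparison tried. Of the genes then called, 12.7% were unchanged ones for Zfp281 KO at 16 h and 10.6% at ESC, above the level aimed at. That share was 3.38% for the double KO against Zic2 KO at 32 h and 1.14% for the stage difference. Of the 2-fold changes, 74%, 56%, 54% and 19% were recovered, in that order. DESeq2 1.42.0, another normalization, no filter, a replicate block and left-out libraries were alternatives. The same clone names pair ESC and 32 h (correlation of deviations over 10753 genes 0.419 in Zic2 KO and 0.635 in double KO).

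The members and gene lists were chosen with earlier results of these data known. Named genes had the largest smaller difference or highest level (20 each), the smallest adjusted p (8 per direction and comparison), stood in a gene list or by the threshold, or had a member as relative or neighbour. Those described are a part of these, picked after their values were seen.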

Additional observations from a re-analysis of the deposited data

Results flagged for a closer look

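In 12 named members the effect of Ehmt1 loss in Zic2 KO cells differed between the stages by the test of the difference itself, taken as the log2 fold change of double KO against Zic2 KO at 32 h minus the same at ESC. In 11 it was more positive at 32 h, a direction that the rule favours, since it set no condition at ESC. Among these, Lrriq4 lay under the filter's level in both Zic2 KO libraries at 32 h, so its value is a description. The difference was 2.99 for Aqp3, 2.87 for Lrriq4, 2.64 for Cd55, 2.55 for Lgals3, 2.50 for Mme, 2.45 for Tppp3, 2.34 for Cdhr1, 2.33 for Elf3, 1.69 for Nid1, 1.67 for S100a10 and 1.52 for Mreg. The epithelial factor Elf3 and the photoreceptor cadherin Cdhr1 stood close in both genotypes in 2i, while the double KO clones lay below Zic2 KO for the galectin Lgals3. For Dock2, the activator of Rac, it was -2.66, with the larger effect in 2i.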

How the results depend on the processing

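The 119 single gene calls recomputed with a fold change kept their direction under every alternative run, and 115 kept their call under all but the stricter threshold of 0.01; the other 4, of Dppa3, Dock2, Pkd2l1 and Nlrp4c, are given above. Calls given above by name or in counts alone, such as Lgals3, Sfmbt2 and those in Zic2 KO at ESC, are not among the 119. Counts of members without 1 library ran from 190 to 218 higher in the double KO at 32 h, from 132 to 167 higher and 1 to 4 lower in the double KO at ESC, from 141 to 155 and 0 to 2 in Ehmt1 KO at ESC, from 0 to 6 and 0 to 3 in Zic2 KO at ESC, from 142 to 249 higher in Zfp281 KO at 16 h, from 59 to 155 and 0 to 2 in Zfp281 KO at ESC, from 21 to 27 rising and 68 to 77 falling in Zic2 KO over time, and from 16 to 44 and 2 to 8 for the stage difference. The set itself ran from 249 to 277 genes.

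With a pseudocount of 5 the rule chose 98 genes, with a threshold of 1.5 it chose 81 and with 0.8 it chose 407. For Zic2 KO at ESC, 28 higher and 11 lower were called by DESeq2, 8 and 6 without a filter, 23 and 6 with these groups fitted alone, 16 and 4 with a replicate block and 0 and 0 at an adjusted p under 0.01. At that threshold Zfp281 KO at ESC had 81 higher and 0 lower, the rising members were 22, the stage difference had 19 and 1, and 1 was lower in the double KO and 1 in Ehmt1 KO at ESC. Without a filter 1 was lower in Ehmt1 KO and 0 in Zfp281 KO at ESC. Groups fitted alone gave 60 rising members and 3 lower for the stage difference. DESeq2 gave 60 higher for the stage difference. The replicate block gave 57 rising members, and 84 higher and 18 lower for the stage difference; it moved no other count of members by over 1.5 times. Between genotypes, same-numbered libraries shared only a number (correlations -0.20 to 0.14). The causes of these changes were not tested. With n = 2 and some members at few counts in WT, small differences were not detectable, and a missed threshold does not show that levels were equal.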
